A study of Mus musculus with 8 samples.

Results

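Collagen chains are the products of the genes whose mouse symbols run from Col1a1 to Col28a1. The 44 genes whose symbol has the form Col, a number, a and a number were taken from the 41388 gene identifiers measured in ear skin, and 41 of them passed the filter on low counts that left 16105 genes for testing. Adult wild-type C57Bl/6 mice received either the ethanol vehicle or MC903, and RNA of the whole ear was sequenced from 4 mice of each group. MC903 is calcipotriol, an analog of vitamin D. It was given topically, 1 nmol each day over 12 days, and is widely used to produce skin inflammation resembling atopic dermatitis. The vehicle group carries no statement of days or volume in the labels, no group carries an engineered allele, and the age is given only as adult.

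Collagens are extracellular matrix proteins in which chains wind around each other into a rope-like helix. Fibrillar collagens form the tensile cables of the dermis. Type IV chains form the sheet-like network of basement membranes, including the one under the epidermis. Other chains coat fibrils, span cell membranes or serve cartilage. The ear holds dermis and epidermis over a plate of elastic cartilage, with muscle, nerve and fat, so chains of every class could be followed in it.

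Collagen reads made up 0.587% to 1.36% of the reads assigned to genes in the vehicle libraries and 0.544% to 0.798% in the MC903 libraries. Library totals ran from 12310466 to 16837221 counts, and 3 counts, taken as the detection floor, corresponded to 0.171 to 0.25 CPM, the count scaled to library size. Vehicle replicate 2 stood apart from the other libraries, with a TMM scaling factor of 0.775 against 1.11 to 1.13 in the other vehicle libraries. Its chi-square per degree of freedom against the other vehicle libraries was 328 to 349, where those differed among themselves by 31.2 to 34.9. Vehicle replicate 4 had the highest collagen share, 1.36%. Counts of changed genes are therefore also given without both of these libraries, a choice made after seeing the data. Markers of basal keratinocytes, cartilage, muscle, nerve, fat, vessels and leukocytes were all present. The exception, named after its values were seen, was the cartilage marker Matn1, with 0 or 1 count in every library.

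Of the 41 tested collagen genes, 22 fell and 5 rose in MC903 ears, and 14 did not pass the test. A value after ± beside a log2 fold change is its standard error. The call is an adjusted p under 0.05 in edgeR's quasi-likelihood test over all genes tested. The share that fell was 53.7%, where 20.2% of all genes tested fell, and the share that rose was 12.2%, where 21.3% of all genes rose. Called genes in either direction made up 65.9% of the collagens and 41.5% of all genes. The median log2 fold change (MC903 against vehicle) was -0.58 over the collagens and -0.03 over all genes. In 21 collagen genes, 51.2%, the 4 MC903 values all lay above (4 genes) or all below (17 genes) the 4 vehicle values, against 38.7% of all genes. Without vehicle replicates 2 and 4 the counts were 13 lower and 5 higher. Calls over all genes were fewer there too, 4800 of 16744 against 6682 of 16105 with all libraries. Because whole ears were measured, fewer cells of a type and less RNA per cell cannot be told apart.

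**Figure D1:**
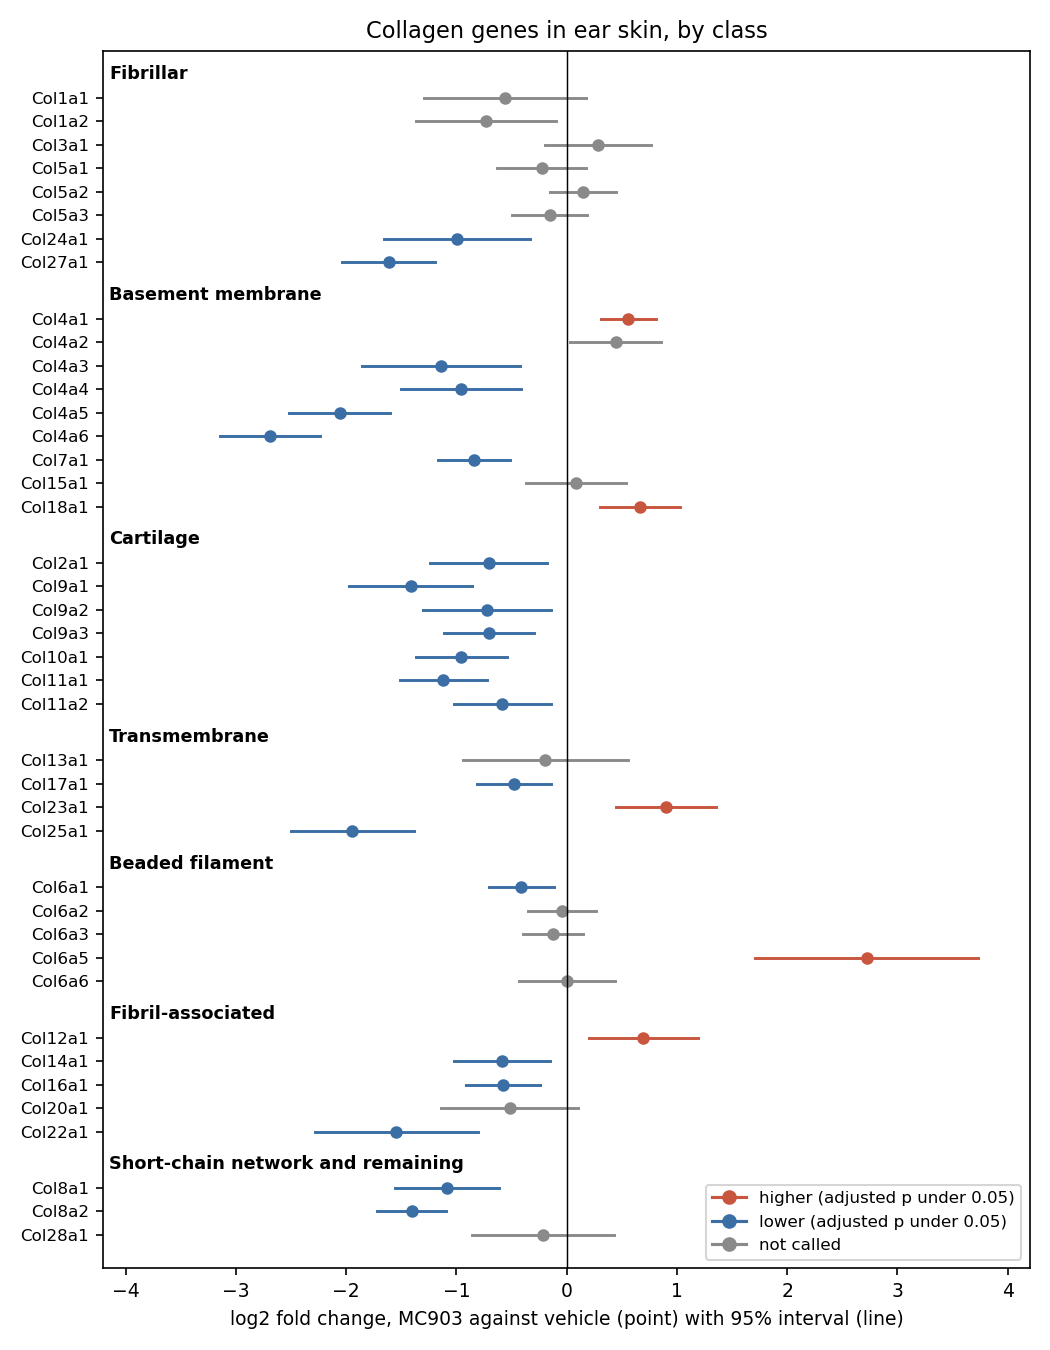
Log2 fold change of each tested collagen gene, MC903 against vehicle, on the horizontal axis, with its 95% interval as a line, grouped by class on the vertical axis. All 7 cartilage collagens lie left of 0, the basement membrane chains run from -2.69 (Col4a6) to 0.67 (Col18a1), and Col6a5 at 2.72 is the furthest to the right.

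The type IV genes lie in head-to-head pairs that are read outward from a shared stretch of DNA, and the pair on chromosome X carried the largest falls of the family. The DNA just upstream of that pair, and the short gap between Col4a4 and Col4a3, is therefore shown from RefSeq (GRCm38.p6), 5′ to 3′ on the strand of the named gene. Col4a6 is read from the minus strand with the window chrX:141474077-141474326. Col4a5 is read from the plus strand with chrX:141475169-141475384, the part of its window before the first annotated exon. Col4a4 is read from the minus strand with chr1:82586850-82586920 as the complete gap of 71 bases. Capitals mark matches on either strand to the TATA box (TATAAA), to the CCAAT box written as its name, or to the core of the GC box (GGGCGG). Each motif was searched by its letters on both strands, whether or not it overlapped another.
Col4a6: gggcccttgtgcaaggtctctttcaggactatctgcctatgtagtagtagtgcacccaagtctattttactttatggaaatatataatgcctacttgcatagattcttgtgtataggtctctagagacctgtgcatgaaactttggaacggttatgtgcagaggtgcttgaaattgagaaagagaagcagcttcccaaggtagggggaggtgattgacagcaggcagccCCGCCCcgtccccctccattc
Col4a5: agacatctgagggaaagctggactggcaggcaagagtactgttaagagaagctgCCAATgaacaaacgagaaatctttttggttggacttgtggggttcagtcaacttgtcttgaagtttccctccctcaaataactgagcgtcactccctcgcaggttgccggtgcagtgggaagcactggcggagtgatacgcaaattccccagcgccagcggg
Col4a4: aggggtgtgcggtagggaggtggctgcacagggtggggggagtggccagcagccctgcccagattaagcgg
The Col4a6 window holds 1 GGGCGG match on its opposite strand. The Col4a5 stretch shown holds 1 CCAAT match, and the Col4a4 to Col4a3 gap holds none of these motifs. The full Col4a5 window of 250 bases, which runs to 141475418 and into the first exon, also holds 1 GGGCGG match. The starts of Col4a6 and Col4a5 are 1308 bases apart. Col4a1 and Col4a2, on chromosome 8, overlap by 22 bases at their starts, and their upstream windows lie inside the partner's first exon and are not shown.

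Among windows of 250 bases upstream of annotated starts, 38 windows belonged to 35 collagen genes and 32851 to all genes. GGGCGG was found in 57.9% of the collagen windows and in 32.7% of all windows, beside a median GC content of 59.0% and 52.4%. CCAAT was found in 34.2% and 33.8%, and TATAAA in 13.2% and 12.4%, of collagen and all windows. The direct-repeat vitamin D response element, the paired motif bound by the vitamin D receptor, was found in 0 of 38 collagen windows and in 13 of all windows. These letters say nothing about sites outside the windows.

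Type IV chains went in opposite directions. The broadly expressed pair is Col4a1 and Col4a2, whose products assemble together in nearly every basement membrane. Of this pair Col4a1 rose 1.47-fold and Col4a2 did not pass the test. The other chains, Col4a3 to Col4a6, have restricted expression, and all 4 fell, by 1.94-fold to 6.46-fold. The Col4a5 and Col4a6 products are partners in the basement membrane of the epidermis, and mutations in Col4a3, Col4a4 and Col4a5 underlie Alport syndrome.

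Col4a6 (ENSMUSG00000031273, chromosome X, 141165403 to 141474076, mm10) measured 30.2, 18.9, 23.4 and 23.1 CPM in the vehicle libraries and 3.58, 3.17, 5.04 and 2.92 CPM in the MC903 libraries, here and below in the order of replicates 1 to 4. Every MC903 library lay far below every vehicle library, and the log2 fold change was -2.69 ± 0.21 (adjusted p = 3.81e-06), the lowest of all collagens. Its neighbour Col4a5 (ENSMUSG00000031274, chromosome X, 141475385 to 141689234) measured 18.7, 15.5, 14.7 and 15.4 CPM in the vehicle libraries and 2.29, 4.17, 4.31 and 4.71 CPM in the MC903 libraries. It fell too, without overlap between the groups, at a log2 fold change of -2.06 ± 0.21 (adjusted p = 2.38e-05). Per length, the Col4a6 to Col4a5 ratio was 1.03 to 1.36 in vehicle libraries and 0.523 to 1.31 in MC903 libraries, so the pair's balance overlapped between the groups.

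Col4a3 (chromosome 1, 82586921 to 82722059) measured 10.3, 12.1, 12.5 and 11.2 CPM in the vehicle libraries and 3.91, 2.92, 3.84 and 10.3 CPM in the MC903 libraries. MC903 replicate 4 was just below the lowest vehicle value, while the other 3 MC903 libraries were well below them. The log2 fold change was -1.14 ± 0.33 (adjusted p = 0.0163), and the call was lost without MC903 replicate 3 (adjusted p = 0.0535) and without vehicle replicates 2 and 4 together (adjusted p = 0.0586). A share of 5.65% of the exon bases of Col4a3 also belongs to C430014B12Rik on the opposite strand, and how strand was handled in counting was not given in the sources used here, so their reads may not have been told apart. Col4a4, the gene read in the other direction (chromosome 1, 82448423 to 82586849), measured 13.1, 8.45, 10.3 and 12.2 CPM in the vehicle libraries and 3.91, 3.999, 6.69 and 8.11 CPM in the MC903 libraries. All its MC903 values lay below the lowest vehicle value, at a log2 fold change of -0.96 ± 0.25 (adjusted p = 0.00993).

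Col4a1 (ENSMUSG00000031502, chromosome 8, 11198423 to 11312826) measured 85.2, 94.1, 75.9 and 88.2 CPM in the vehicle libraries and 139, 121, 122 and 125 CPM in the MC903 libraries. The groups did not overlap, and the log2 fold change was 0.56 ± 0.11 (adjusted p = 0.00257). With library sizes alone as the scaling its adjusted p was 0.0549. Col4a2 (chromosome 8, 11312805 to 11449287) measured 57.97, 52.3, 38.2 and 54.2 CPM in the vehicle libraries and 96.5, 61.7, 60.03 and 57.2 CPM in the MC903 libraries. MC903 replicate 1 stood well above the vehicle range and the other MC903 libraries lay at its upper edge, and the log2 fold change of 0.44 ± 0.19 (adjusted p = 0.0807) missed the threshold. The per-length ratio of Col4a1 to Col4a2 was 1.43 to 1.93 in vehicle and 1.39 to 2.13 in MC903 libraries (difference of mean log2 ratios 0.14, two-sided exact permutation p = 0.486, adjusted p = 0.583).

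Set against Col4a1 within each library, and compared per length, the restricted chains took a smaller place. The Col4a6 to Col4a1 ratio was 0.172 to 0.303 in vehicle libraries and 0.0199 to 0.0354 in MC903 libraries. The Col4a5 to Col4a1 ratio was 0.168 to 0.223 in vehicle and 0.0168 to 0.0381 in MC903 libraries. For Col4a3 and Col4a4 the ratios to Col4a1 were 0.0828 to 0.112 and 0.0577 to 0.0986 in vehicle, and 0.0165 to 0.0563 and 0.0182 to 0.0416 in MC903 libraries. These ratios were chosen after the values were seen and are given as a description.

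**Figure D2:**
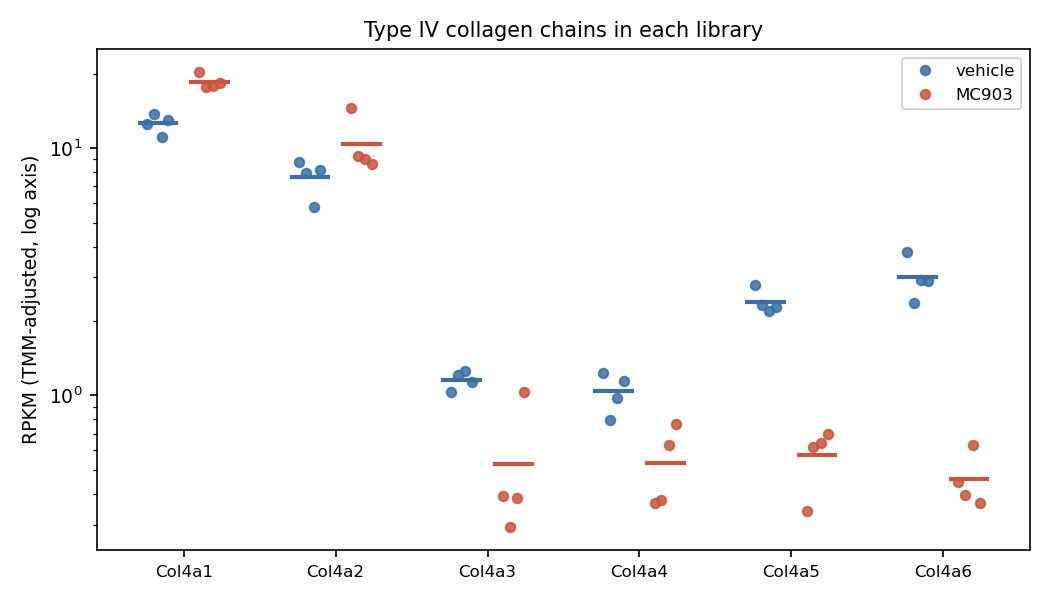
Level of the 6 type IV chains in each library, in TMM-adjusted RPKM (scaled reads per kilobase of gene length) on a log axis, with vehicle and MC903 side by side and a bar at each mean. Col4a1 points are higher in all MC903 libraries, while Col4a5 and Col4a6 points are lower in all of them. The Col4a3 point of MC903 replicate 4 lies just below the lowest vehicle point.

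Of the 9 basement membrane collagens, 2 rose (22.2%, against 21.3% of all genes) and 5 fell (55.6%, against 20.2%). The other 2 did not pass the test, and the median log2 fold change was -0.84. Without vehicle replicates 2 and 4 the counts were 2 higher and 4 lower. Col18a1, the source of the fragment endostatin in vascular and epithelial basement membranes, measured 26.3, 22.5, 16.4 and 23.3 CPM in the vehicle libraries and 42.98, 32.7, 33.5 and 31.2 CPM in the MC903 libraries. Every MC903 library exceeded every vehicle library, and it rose by 0.67 ± 0.16 (adjusted p = 0.00771) on the log2 scale. Col7a1, which makes the anchoring fibrils that fasten the epidermal basement membrane to the dermis, measured 21.7, 25.4, 21.3 and 26.9 CPM in the vehicle libraries and 14.5, 10.6, 12.9 and 15.2 CPM in the MC903 libraries. It fell without overlap, at a log2 fold change of -0.84 ± 0.15 (adjusted p = 0.00101). Col15a1, found beneath muscle and vessel basement membranes, was 15.5 ± 4.58 CPM in vehicle ears and 16.4 ± 2.48 CPM in MC903 ears (mean ± SD over 4 libraries, as in all such pairs below), and its log2 fold change of 0.09 ± 0.21 (adjusted p = 0.764) did not pass the test.

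Cell type markers moved beside these chains, and their part in the results was not tested. Of the 8 basal keratinocyte markers 2 were higher (25%, against 21.3% of all genes) and 1 lower (12.5%, against 20.2%), with a median log2 fold change of -0.08. They summed to 1659 to 2011 RPKM in vehicle and 4394 to 5371 RPKM in MC903 libraries. Most of that sum was Krt14, the basal keratin, at a log2 fold change of 1.87 ± 0.19 (adjusted p = 2.71e-05). The 8 endothelial markers summed to 33.6 to 45.6 RPKM and 38.8 to 53.9 RPKM. Of these 1 was higher (12.5%, against 21.3% of all genes) and 0 were lower (against 20.2%). Egfl7, their most abundant member per length by the mean over all libraries, had a log2 fold change of 0.16 ± 0.15 (adjusted p = 0.416), short of the threshold. The 6 pericyte and smooth muscle markers, led by Acta2, summed to 89.9 to 129 RPKM and 108 to 153 RPKM. Of these 0 were higher (against 21.3% of all genes) and 1 was lower (16.7%, against 20.2%).

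All 7 cartilage collagens fell (100%, against 20.2% of all genes). These genes serve hyaline and elastic cartilage and other tissues too: Col2a1 is its main fibril chain, Col11a1 and Col11a2 set fibril width, Col9a1 to Col9a3 decorate the fibril surface and Col10a1 is the network collagen of hypertrophic chondrocytes. The falls ran from 1.497-fold (Col11a2) to 2.67-fold (Col9a1), with a median log2 fold change of -0.73. In 4 of the 7 genes (57.1%, against 38.7% of all genes) the groups did not overlap. All 7 passed the test over 8 libraries, but 4 to 6 passed when 1 library was left out, with 4 left when the omitted library was vehicle 1, MC903 2 or MC903 4. Without vehicle replicates 2 and 4 together, 4 passed.

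Col9a1 (chromosome 1, 24177610 to 24252684) measured 16.6, 9.14, 11.03 and 17.99 CPM in the vehicle libraries and 3.51, 4.75, 5.897 and 6.41 CPM in the MC903 libraries. The highest MC903 value was below the lowest vehicle value, and the log2 fold change was -1.42 ± 0.25 (adjusted p = 0.00117). Col11a1 (chromosome 3, 114030540 to 114220718) was the most abundant cartilage collagen per length, at 6.21 to 9.58 RPKM in vehicle and 2.51 to 3.97 RPKM in MC903 libraries. It measured 64.3, 60.01, 92.5 and 73.9 CPM in the vehicle libraries and 24.2, 37.6, 38.3 and 33.998 CPM in the MC903 libraries. It fell by 1.12 ± 0.18 (adjusted p = 0.000548) on the log2 scale, again without overlap. Col10a1 measured 11.1, 6.99, 11.5 and 8.93 CPM in the vehicle libraries and 4.79, 4.499, 5.04 and 5.599 CPM in the MC903 libraries. Its MC903 libraries were close together below all vehicle libraries, at a log2 fold change of -0.95 ± 0.19 (adjusted p = 0.00196).

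Col9a3 measured 21.03, 12.8, 15.8 and 16.2 CPM in the vehicle libraries and 9.38, 11.7, 11.6 and 7.79 CPM in the MC903 libraries. Its groups were separate, at a log2 fold change of -0.70 ± 0.19 (adjusted p = 0.0105), with 6.07% of its exon bases shared with Tcfl5 on the opposite strand. Col2a1 measured 22.9, 16.8, 13.3 and 13.1 CPM in the vehicle libraries and 11.8, 6.42, 13.3 and 8.76 CPM in the MC903 libraries. Its groups overlapped narrowly, vehicle replicate 1 was the highest, and the log2 fold change was -0.71 ± 0.24 (adjusted p = 0.0367). The Col2a1 call was lost on omitting vehicle 1 or 2 or MC903 2 or 4 (adjusted p = 0.0648 to 0.115), and without vehicle 2 and 4 together (adjusted p = 0.0548). Col9a2 at -0.73 ± 0.26 (adjusted p = 0.0463) and Col11a2 at -0.58 ± 0.20 (adjusted p = 0.0368) lost their calls most often. The Col9a2 call was lost on leaving out any of 6 libraries (vehicle 1, 3 or 4 and MC903 1, 2 or 4; adjusted p = 0.0574 to 0.134). It was also lost without the filter on low counts, with RLE factors, with library sizes alone, in DESeq2 and without vehicle 2 and 4 together (adjusted p = 0.0505 to 0.0748). That of Col11a2 was lost without vehicle 1, 3 or 4 or MC903 2, 3 or 4 (adjusted p = 0.0642 to 0.102). It was also lost without the count filter, with library sizes alone and without vehicle 2 and 4 together (adjusted p = 0.0569 to 0.0722). With replicate number as a block, the Col9a2 and Col11a2 calls were lost as well.

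Chondrocyte markers that are not collagens fell alongside, and whether they account for the collagen falls was not tested. Of 10 tested markers 8 fell (80%, against 20.2% of all genes) and 0 rose. The 11 listed summed to 692 to 886 RPKM in vehicle and 230 to 333 RPKM in MC903 libraries. Chad, a cartilage leucine-rich repeat protein and the most abundant per length, measured 419 ± 54.6 RPKM in vehicle ears and 112 ± 34.1 RPKM in MC903 ears and fell at a log2 fold change of -1.90 ± 0.22 (adjusted p = 5.30e-05). The 7 cartilage collagens summed to 17.5 to 24.6 RPKM in vehicle and 10.3 to 13.1 RPKM in MC903 libraries.

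**Figure D3:**
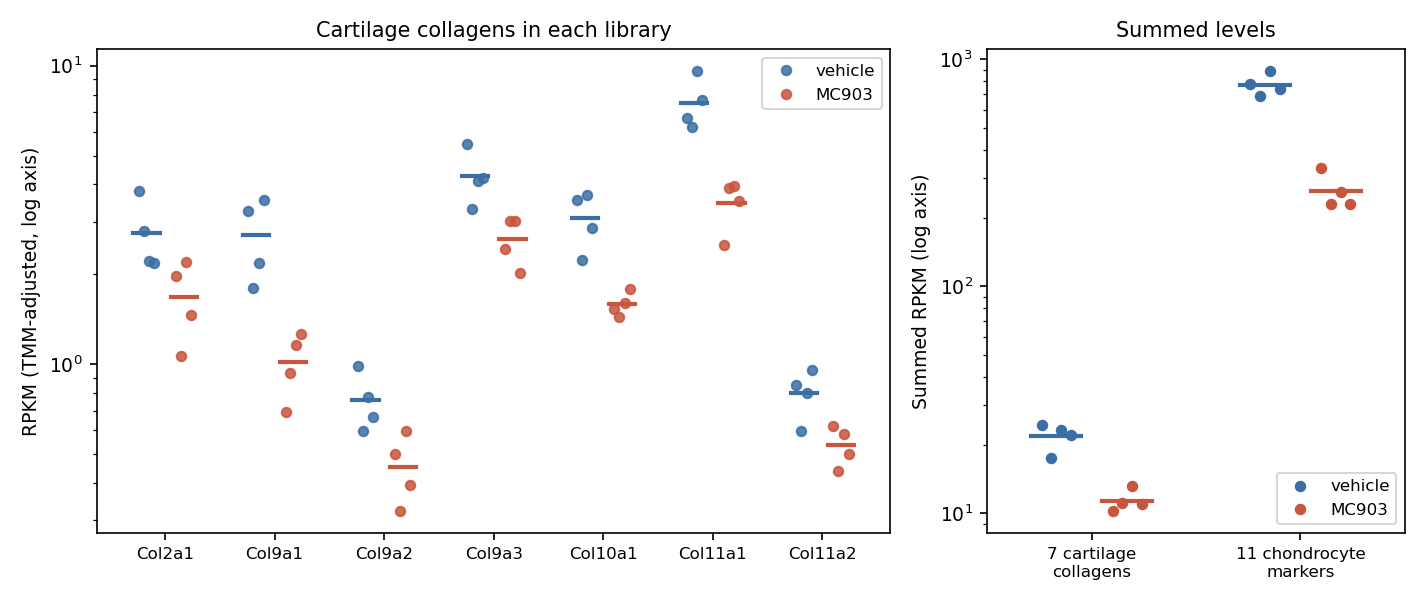
Left, level of the 7 cartilage collagens in each library in TMM-adjusted RPKM on a log axis, with a bar at each mean. Right, the same genes summed beside the sum of the 11 chondrocyte markers, also on a log axis. Both sums are lower in every MC903 library, 10.3 to 13.1 against 17.5 to 24.6 RPKM and 230 to 333 against 692 to 886 RPKM.

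The fibrillar chains that make up most of the dermis did not pass the test. Of 8 fibrillar genes 0 rose, against 21.3% of all genes, and 2 fell (25%, against 20.2% of all genes), both of them minor members, Col27a1 and Col24a1. Without vehicle replicates 2 and 4, and without any one of vehicle 2, vehicle 4 or MC903 1, 1 fell. The median log2 fold change was -0.39, and it was -0.14 without vehicle replicate 4. Per length, the 8 genes held 59.2% to 77.4% of all collagen transcripts in vehicle and 66.2% to 76.0% in MC903 libraries.

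Col1a1 (ENSMUSG00000001506, chromosome 11, 94936224 to 94953042), the main chain of the major dermal fibril, measured 2678, 2447, 1568 and 5209.9 CPM in the vehicle libraries and 1995, 1768, 1593 and 2722 CPM in the MC903 libraries. Vehicle replicate 4 was the highest of all libraries, vehicle replicate 3 was the lowest, and the MC903 values lay between these. The log2 fold change was -0.56 ± 0.33 (adjusted p = 0.198) with a 95% interval of -1.29 to 0.17. Without vehicle replicate 4 it was -0.15. Col1a2 (chromosome 6, 4504814 to 4541543), its partner chain, measured 1787, 1799, 1249.6 and 2994 CPM in the vehicle libraries and 950.1, 1059, 982 and 1729 CPM in the MC903 libraries. Only MC903 replicate 4 entered the vehicle range, and the log2 fold change was -0.73 ± 0.29 (adjusted p = 0.0627). Col1a2 passed the test without vehicle replicate 3 or MC903 replicate 4 (adjusted p = 0.0175 to 0.0342). It also passed without the count filter, with upper quartile factors, with library sizes alone and in DESeq2 (adjusted p = 0.0216 to 0.0497), and with replicate number as a block.

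Col3a1 (chromosome 1, 45311538 to 45349706), which co-assembles with type I collagen in skin and vessel walls, measured 1078, 1285, 909 and 1420.4 CPM in the vehicle libraries and 1122, 1431, 1241 and 1909 CPM in the MC903 libraries. The groups overlapped, and the log2 fold change was 0.28 ± 0.22 (adjusted p = 0.322). Its per-length ratio to Col1a1 was 0.269, 0.351, 0.388 and 0.182 in vehicle libraries and 0.376, 0.541, 0.521 and 0.469 in MC903 libraries. MC903 replicate 1 alone fell inside the vehicle range. The difference of mean log2 ratios was 0.72 (two-sided exact permutation p = 0.0571, adjusted p = 0.171 over the 6 chain ratios), where 4 against 4 libraries can reach 0.0286 at the lowest. Col3a1 supplied 9.23% to 13.4% of collagen transcripts per length in vehicle and 15.3% to 19.2% in MC903 libraries, a share given as a description.

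Type V chains, which start and limit fibril growth, did not pass the test. Col5a1 was 36.8 ± 8.97 CPM in vehicle ears and 31.4 ± 4.802 CPM in MC903 ears (log2 fold change -0.23 ± 0.18, adjusted p = 0.342). Col5a2, the neighbour of Col3a1 on chromosome 1, was 102 ± 6.93 CPM in vehicle ears and 114 ± 19.4 CPM in MC903 ears (log2 fold change 0.15 ± 0.14, adjusted p = 0.405, 95% interval -0.15 to 0.45). Col5a3 was 20.9 ± 3.35 CPM in vehicle ears and 18.8 ± 2.46 CPM in MC903 ears (log2 fold change -0.15 ± 0.15, adjusted p = 0.446). Their 95% intervals all included 0, and the Col5a1 to Col5a2 ratio differed by -0.34 on the log2 scale (two-sided exact permutation p = 0.143, adjusted p = 0.214).

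Col27a1 (ENSMUSG00000045672, chromosome 4, 63214004 to 63334991), a fibrillar chain best known from cartilage, measured 111, 63.01, 73.6 and 108 CPM in the vehicle libraries and 25.2, 30.7, 32.997 and 27.3 CPM in the MC903 libraries. No MC903 library came near the vehicle range. It fell 3.06-fold, at a log2 fold change of -1.61 ± 0.19 (adjusted p = 7.09e-05), and was called under every alternative tried with a log2 fold change of -1.76 to -1.49. Col24a1, a scarce chain known from developing bone, measured 1.35, 2.46, 1.9995 and 2.25 CPM in the vehicle libraries and 0.742, 1.4997, 1.06 and 0.7303 CPM in the MC903 libraries. The groups overlapped, and the log2 fold change of -0.995 ± 0.30 (adjusted p = 0.0214) lost its call on omitting vehicle 2 or 4 or MC903 1 or 4 (adjusted p = 0.0503 to 0.0563) and without vehicle 2 and 4 together (adjusted p = 0.175).

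Markers of fibroblasts, the main source of dermal fibrils, were mostly not called, and their part in these values was not tested. Of 9 fibroblast markers 6 did not pass the test, 1 rose (11.1%, against 21.3% of all genes) and 2 fell (22.2%, against 20.2%). The sum of the 9 was 2799.6 to 3682 RPKM in vehicle and 1854 to 2454 RPKM in MC903 libraries. Dcn, the collagen-binding proteoglycan decorin, carried most of that sum and fell by 0.74 ± 0.19 (adjusted p = 0.00838) on the log2 scale. Dcn, Lum and Dpt of this list are also in the list of fibril-binding proteoglycans.

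**Figure D4:**
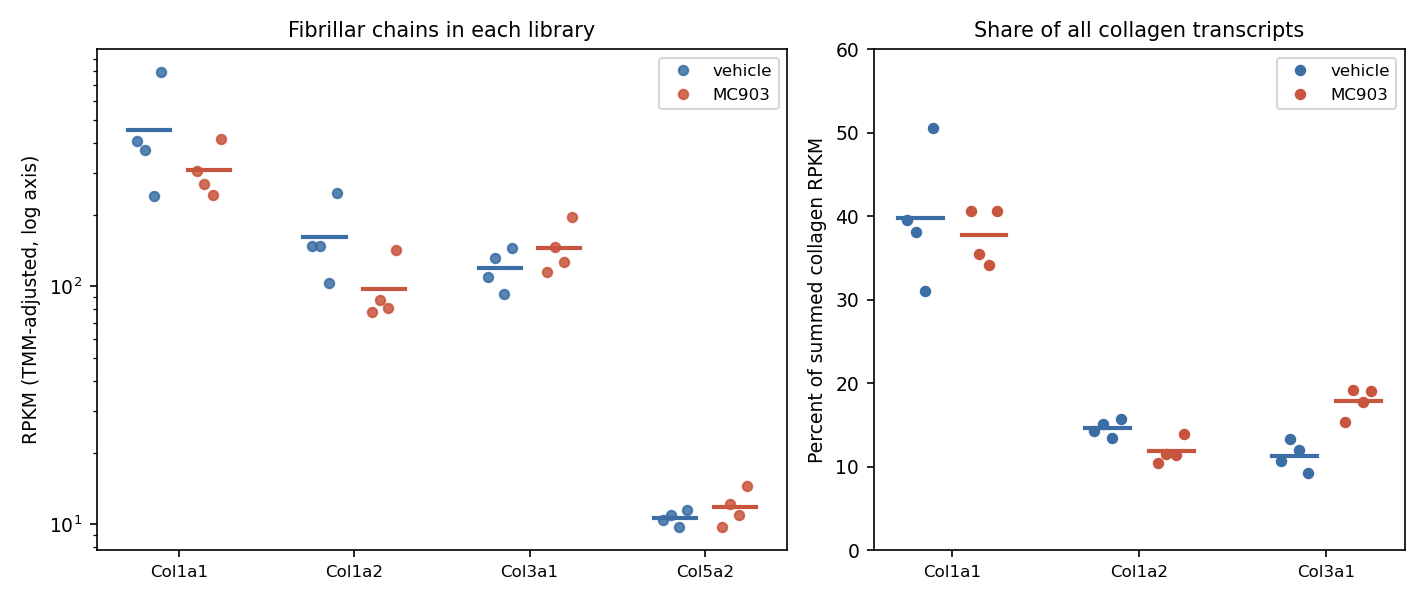
Left, level of 4 fibrillar chains in each library in TMM-adjusted RPKM on a log axis, with a bar at each mean. Right, the percent of summed collagen RPKM supplied by Col1a1, Col1a2 and Col3a1. Col1a1 of vehicle replicate 4 lies above all other points at 50.6% of the collagen sum, and the Col3a1 share is 9.23% to 13.4% in vehicle and 15.3% to 19.2% in MC903 libraries.

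Transmembrane collagens sit in the cell membrane with their helices outside. Of 4 tested, 1 rose (25%, against 21.3% of all genes) and 2 fell (50%, against 20.2%). Without vehicle replicates 2 and 4 together 1 rose and 1 fell. Col17a1, the hemidesmosome protein that ties basal keratinocytes to the basement membrane, measured 399, 298, 319.6 and 368 CPM in the vehicle libraries and 255, 255, 274 and 211 CPM in the MC903 libraries. All MC903 values lay below the vehicle values, at a log2 fold change of -0.48 ± 0.15 (adjusted p = 0.0271). That call was lost on omitting vehicle 1 or 4 or MC903 2 or 4 (adjusted p = 0.0588 to 0.072), and with library sizes alone or without vehicle 2 and 4 together (adjusted p = 0.0676 to 0.0698). Replicate number as a block also removed the Col17a1 call.

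Col23a1 (chromosome 11, 51289920 to 51583918), a membrane collagen of epithelia that binds an integrin, measured 35.8, 28.7, 30.9 and 35.9 CPM in the vehicle libraries and 92.4, 54.2, 53.01 and 45.7 CPM in the MC903 libraries. MC903 replicate 1 was the highest, the groups did not overlap, and it rose by 0.90 ± 0.20 (adjusted p = 0.00482) on the log2 scale. Col25a1 (chromosome 3, 130180891 to 130599877), a collagen needed where motor nerves meet muscle, measured 3.48, 3.77, 4.28 and 2.87 CPM in the vehicle libraries and 0.607, 1.08, 0.928 and 1.14 CPM in the MC903 libraries. It fell 3.85-fold without overlap, at a log2 fold change of -1.94 ± 0.25 (adjusted p = 0.000134). Col13a1, another collagen of the neuromuscular junction, was 0.982 ± 0.3005 CPM in vehicle ears and 0.869 ± 0.317 CPM in MC903 ears, and its log2 fold change of -0.20 ± 0.34 (adjusted p = 0.672) did not pass the test. Beside these, 4 of 7 skeletal muscle markers fell (57.1%, against 20.2% of all genes) and 0 rose. The muscle markers, led by Acta1, summed to 1993 to 6248 RPKM in vehicle and 1122 to 3520 RPKM in MC903 libraries. All 8 Schwann cell markers fell (100%, against 20.2% of all genes), from a sum of 342 to 490.2 RPKM to 184 to 225 RPKM, led by Pmp22. The part of muscle and nerve in these values was not tested.

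Type VI collagen forms beaded filaments around cells from Col6a1, Col6a2 and a further chain, usually Col6a3. Of the 6 genes 5 were tested, with 1 higher (20%, against 21.3% of all genes) and 1 lower (20%, against 20.2%). Without vehicle replicates 2 and 4 there were 1 higher and 0 lower. Of the 3 abundant chains Col6a1 fell, and Col6a2 and Col6a3 did not pass the test. Col6a1 measured 267, 265, 227 and 298 CPM in the vehicle libraries and 204, 184, 193 and 214 CPM in the MC903 libraries. It fell by 0.41 ± 0.13 (adjusted p = 0.0299) on the log2 scale, without overlap between the groups. The call was lost on leaving out vehicle replicate 1, 2 or 4 or MC903 replicate 2 or 3 (adjusted p = 0.0552 to 0.0888), and without the count filter, with library sizes alone or without vehicle replicates 2 and 4 together (adjusted p = 0.0577 to 0.219). Replicate number as a block also removed the Col6a1 call. Col6a2 was 116 ± 19.5 CPM in vehicle ears and 113 ± 10.4 CPM in MC903 ears (log2 fold change -0.04 ± 0.14, adjusted p = 0.832, 95% interval -0.35 to 0.27), and Col6a3 was 182 ± 18.7 CPM in vehicle ears and 168 ± 10.7 CPM in MC903 ears (log2 fold change -0.12 ± 0.12, adjusted p = 0.461). The ratio of Col6a1 to Col6a2 per length was 3.67 to 4.98 in vehicle and 3.01 to 3.80 in MC903 libraries (difference of mean log2 ratios -0.37, two-sided exact permutation p = 0.0571, adjusted p = 0.171).

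Col6a5 had the largest rise among the tested collagens. The gene (ENSMUSG00000091345, chromosome 9, 105856078 to 105960643) encodes a chain that can take the place of Col6a3, and it measured 0.412, 0.461, 1.77 and 0.312 CPM in the vehicle libraries and 4.93, 4.499, 3.64 and 7.14 CPM in the MC903 libraries. All MC903 libraries lay above all vehicle libraries, although vehicle replicate 3 was clearly higher than the other vehicle libraries. The log2 fold change was 2.72 ± 0.46 (adjusted p = 0.000788), and 3.65 without vehicle replicate 3. Its neighbours on chromosome 9 are the related chains Col6a6 and Col6a4, and reads that these copies share would be uncertain. Col6a6 was 3.66 ± 0.488 CPM in vehicle ears and 3.67 ± 0.672 CPM in MC903 ears (log2 fold change 0.00 ± 0.20, adjusted p = 0.996). Col6a4 did not pass the count filter, with 1 count over the vehicle libraries and 9, 6, 4 and 13 counts in the MC903 libraries, a ratio of 37.5 (95% exact interval 6.26 to 1530, covering counting error only). Tested without the filter, Col6a4 was called higher (edgeR adjusted p = 0.000331).

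Fibril-associated collagens attach to the surface of fibrils. Of the 6 genes 5 were tested, with 1 higher (20%, against 21.3% of all genes) and 3 lower (60%, against 20.2%). Without vehicle replicates 2 and 4 there was 1 of each. Col12a1, abundant in tissue under strain, measured 46.4, 42.7, 40.1 and 75.8 CPM in the vehicle libraries and 66.1, 113, 79.7 and 73.5 CPM in the MC903 libraries. Vehicle replicate 4 overlapped the MC903 values, and it rose by 0.70 ± 0.22 (adjusted p = 0.0278) on the log2 scale. Col14a1, which is built much like it, measured 37.2, 69.3, 51.7 and 46.97 CPM in the vehicle libraries and 28.4, 32.1, 31.6 and 44.5 CPM in the MC903 libraries. It fell by 0.59 ± 0.20 (adjusted p = 0.0338) on the log2 scale, with MC903 replicate 4 inside the vehicle range. Both calls were lost on leaving out single libraries. For Col12a1 these were vehicle replicates 1, 2 and 3 and MC903 replicates 2 and 3 (adjusted p = 0.0508 to 0.0876), as with library sizes alone (adjusted p = 0.0709). For Col14a1 these were vehicle replicates 2 and 3 and MC903 replicates 1, 2 and 3 (adjusted p = 0.0671 to 0.0947), and its adjusted p was 0.207 without vehicle replicates 2 and 4 together.

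Col16a1, a chain of dermal fibrils near the basement membrane, measured 21.7, 23.6, 21.2 and 30.7 CPM in the vehicle libraries and 14.9, 15.1, 16.2 and 19.1 CPM in the MC903 libraries. It fell without overlap, at a log2 fold change of -0.58 ± 0.15 (adjusted p = 0.011), but its adjusted p was 0.114 without vehicle replicates 2 and 4. Col22a1, which marks the junction of muscle and tendon, measured 1.89, 1.61, 2.06 and 0.937 CPM in the vehicle libraries and 0.405, 0.417, 0.729 and 0.649 CPM in the MC903 libraries. It fell 2.92-fold without overlap, at a log2 fold change of -1.55 ± 0.34 (adjusted p = 0.00382), beside the muscle markers given above, whose part was not tested. Col20a1 was 1.21 ± 0.165 CPM in vehicle ears and 0.852 ± 0.252 CPM in MC903 ears, and its log2 fold change of -0.52 ± 0.28 (adjusted p = 0.165) did not pass the test. Col19a1 was not tested, with 19 counts in vehicle and 13 in MC903 libraries, a ratio of 0.801 (95% exact interval 0.364 to 1.71).

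The short-chain network collagen, type VIII, fell in both of its chains. It is made by endothelial and other cells and is known from the cornea and vessel walls. Col8a1 (chromosome 16, 57624258 to 57754737) measured 422, 399.9, 485 and 490.2 CPM in the vehicle libraries and 129, 220.4, 225 and 274 CPM in the MC903 libraries. Per length it supplied 6.12% to 12.3% of collagen transcripts in vehicle and 3.38% to 6.21% in MC903 libraries. The log2 fold change was -1.08 ± 0.21 (adjusted p = 0.00211). Col8a2 (chromosome 4, 126286793 to 126314330) measured 51.5, 36.96, 47.2 and 44.6 CPM in the vehicle libraries and 15.7, 15.1, 17.4 and 19.9 CPM in the MC903 libraries. It fell 2.65-fold, at a log2 fold change of -1.41 ± 0.14 (adjusted p = 2.38e-05), and neither chain's groups overlapped. The per-length ratio of Col8a1 to Col8a2 was 7.21 to 9.66 in vehicle and 7.24 to 12.8 in MC903 libraries, given as a description.

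Of the remaining genes, Col28a1, a collagen found around nerves, was 3.004 ± 0.931 CPM in vehicle ears and 2.61 ± 0.799 CPM in MC903 ears, and its log2 fold change of -0.21 ± 0.29 (adjusted p = 0.586) did not pass the test. Col26a1 had 3 counts in vehicle and 2 in MC903 libraries and was not tested.

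Neighbouring collagen genes were compared next. Within 250 kb there were 8 neighbouring pairs, 3 of them head to head and all of type IV. Both members were tested in 6 pairs. In 2 pairs, Col4a6 with Col4a5 and Col4a4 with Col4a3, both members fell, and 0 pairs had members called in opposite directions. Of all tested collagens 53.7% fell and 12.2% rose, and whether neighbours moved together more often than other collagens was not tested. Col3a1 and Col5a2, tail to tail and 24614 bases apart, were both short of the threshold. Col6a5 rose 27917 bases from Col6a6, whose log2 fold change was 0.00.

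Genes that make, process, bind and degrade collagen were taken from a list of 64 by role. Of 60 tested, 9 rose (15%, against 21.3% of all genes) and 22 fell (36.7%, against 20.2%). Called genes in either direction made up 51.7%, against 41.5% of all genes, and the median log2 fold change was -0.25. Without vehicle replicates 2 and 4 the counts were 8 higher and 19 lower. Of the 15 enzymes that modify the new chain, 3 were higher (20%, against 21.3% of all genes) and 4 lower (26.7%, against 20.2%). P4ha3, a catalytic subunit of prolyl hydroxylase, which stabilizes the helix, measured 0.412, 0.231, 0.229 and 0.0625 CPM in the vehicle libraries and 4.72, 3.67, 3.18 and 3.49 CPM in the MC903 libraries. It was near the detection floor in vehicle libraries and well above it in all MC903 libraries (log2 fold change 3.95 ± 0.36, adjusted p = 1.20e-05). P4hb, the enzyme's other subunit and a general disulfide isomerase, rose by 0.63 ± 0.18 (adjusted p = 0.0162) on the log2 scale. Its adjusted p was 0.0668 under library sizes alone and 0.0627 without vehicle replicates 2 and 4 together. P3h3, which acts with lysyl hydroxylation, and Colgalt2, a collagen galactosyltransferase, fell, at log2 fold changes of -0.71 ± 0.13 (adjusted p = 0.00109) and -1.05 ± 0.26 (adjusted p = 0.00697).

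Of 7 folding and export genes 4 fell (57.1%, against 20.2% of all genes) and 0 rose. Creb3l1, a transcription factor that drives collagen secretion, measured 41.5, 39.96, 21.5 and 37.04 CPM in the vehicle libraries and 14.6, 10.8, 13.2 and 15.7 CPM in the MC903 libraries. No MC903 library reached the vehicle range (log2 fold change -1.37 ± 0.21, adjusted p = 0.00039). Fkbp14, a prolyl isomerase, fell by 0.65 ± 0.18 (adjusted p = 0.0136) on the log2 scale. Serpinh1, the collagen chaperone HSP47, was 176 ± 35.3 CPM in vehicle ears and 143 ± 38.97 CPM in MC903 ears, and its log2 fold change of -0.30 ± 0.21 (adjusted p = 0.261) did not pass the test.

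Of 7 tested genes of propeptide removal, the cutting step that lets fibrils form, 4 fell (57.1%, against 20.2% of all genes) and 0 rose. Adamts14, a procollagen N-proteinase, measured 32.2, 21.1, 22.1 and 24.1 CPM in the vehicle libraries and 10.7, 7.33, 7.42 and 7.46 CPM in the MC903 libraries. The groups were far apart (log2 fold change -1.60 ± 0.18, adjusted p = 5.45e-05). Pcolce2, an enhancer of C-propeptide removal, fell by 1.23 ± 0.14 (adjusted p = 4.23e-05) on the log2 scale. Of the 5 lysyl oxidases, which cross-link fibrils, Loxl4 and Loxl3 fell (40%, against 20.2% of all genes) and 0 rose. The log2 fold changes of Loxl4 and Loxl3 were -1.34 ± 0.13 (adjusted p = 1.44e-05) and -0.97 ± 0.13 (adjusted p = 0.00018). Lox, the founding member, averaged 79.8 ± 20.3 CPM in vehicle ears and 87.7 ± 34.4 CPM in MC903 ears, with a log2 fold change of 0.14 ± 0.29 (adjusted p = 0.728) that ran from -0.06 to 0.37 over the alternatives.

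Of 9 fibril-binding proteoglycans and regulators 6 fell (66.7%, against 20.2% of all genes) and 0 rose. Fmod, fibromodulin, which binds type I fibrils and is abundant in cartilage and tendon, measured 394, 377, 479 and 483 CPM in the vehicle libraries and 150.3, 89.8, 122 and 114 CPM in the MC903 libraries. Its groups did not overlap (log2 fold change -1.86 ± 0.18, adjusted p = 1.87e-05). Ogn, osteoglycin, a small proteoglycan that regulates fibril width, fell by 1.35 ± 0.21 (adjusted p = 0.000413) on the log2 scale.

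The degradation list went the other way, with 5 of 9 higher (55.6%, against 21.3% of all genes) and 1 lower (11.1%, against 20.2%). Mmp13, the collagenase that cuts fibrillar collagen in the mouse, measured 0.825, 3.77, 0.914 and 0.999 CPM in the vehicle libraries and 52.6, 174, 273 and 94.9 CPM in the MC903 libraries. Every MC903 library was above every vehicle library, with a wide spread among them (log2 fold change 6.58 ± 0.64, adjusted p = 1.69e-05). Mmp8, the collagenase of neutrophil granules, measured 1.001, 0.692, 0.514 and 0.4997 CPM in the vehicle libraries and 5.802, 7.999, 5.37 and 6.897 CPM in the MC903 libraries. Its rise was 3.25 ± 0.26 (adjusted p = 5.53e-06) on the log2 scale, in all 4 MC903 libraries. Fap, a fibroblast protease that trims cut collagen, fell by 0.84 ± 0.19 (adjusted p = 0.00392) on the log2 scale.

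Of 8 tested collagen receptors 1 rose (12.5%, against 21.3% of all genes) and 1 fell (12.5%, against 20.2%). Lair1, an inhibitory collagen receptor of leukocytes, measured 3.004, 4.15, 3.83 and 4.12 CPM in the vehicle libraries and 30.4, 34.99, 28.2 and 18.9 CPM in the MC903 libraries. It rose by 2.90 ± 0.21 (adjusted p = 2.31e-06) on the log2 scale. Itga10, an integrin chain of chondrocytes, fell by 1.01 ± 0.18 (adjusted p = 0.000958) on the log2 scale, beside the chondrocyte markers given above. Gp6, the platelet receptor, had 0 counts. All 7 leukocyte markers rose (100%, against 21.3% of all genes), led by Lyz2. Their sum was 381 to 493 RPKM in vehicle and 729 to 1125 RPKM in MC903 libraries. In the 7 adipocyte markers, led by Fabp4, 4 fell (57.1%, against 20.2% of all genes) and 0 rose, with sums of 1376 to 4157 RPKM and 788 to 1966 RPKM. The part of leukocytes and fat in these values was not tested.

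**Figure D5:**
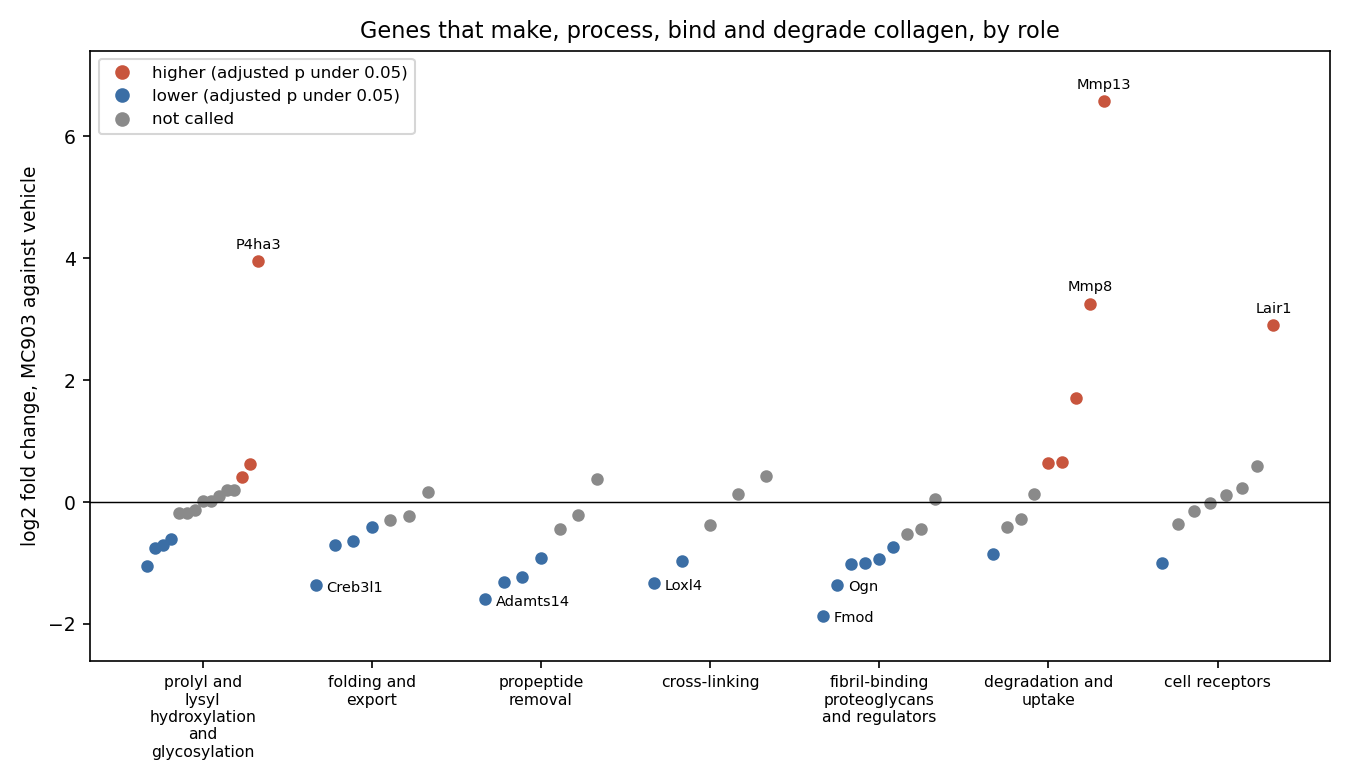
Log2 fold change, MC903 against vehicle, of the 60 tested genes that make, process, bind and degrade collagen, one point per gene in columns by role, colored by call. The degradation column holds Mmp13 at 6.58 and Mmp8 at 3.25, while the columns of folding, propeptide removal, cross-linking and proteoglycans hold 0 genes called higher.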

How the data were processed

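RNA of 8 whole ears was sequenced by the study in single reads of 50 bases after removal of ribosomal RNA. Alignment to build mm10 and counting involved STAR 2.0.4b, Subread and featureCounts 1.4.5, per the submitters' processing notes. How strand and multiply mapped reads were handled, and with which annotation release, was not given in the sources used here. For each library the authors deposited 1 table with counts, CPM and RPKM per Ensembl gene. The deposited CPM and RPKM equalled values recomputed from the counts to within 2.33e-10 and 5.82e-11, and every result rests on the counts. Symbols were matched for 40254 identifiers. Gene and exon coordinates are those of the deposited tables (mm10), and the upstream windows are from RefSeq (GRCm38.p6, the same assembly).

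Counts were filtered with filterByExpr by group, scaled by TMM and tested in edgeR 4.0.16 (R 4.3.3; quasi-likelihood F-test, group only, Benjamini-Hochberg adjustment over 16105 genes, threshold 0.05). CPM and RPKM in the text are TMM-adjusted, and levels of different genes are compared only in RPKM. Per-length values use the gene length in the deposited tables, such as 4380 bases for Col6a1 and 8326 bases for Col6a2. The size of a chain ratio or of a share of collagen transcripts therefore depends on those lengths. Chain ratios (prior count 0.5) were compared with exact permutation tests. Libraries of a group are separate mice per the labels. Precision is limited by the counts given and by 4 mice per group, and intervals on counts cover counting error only. Alternatives were DESeq2 1.42.0, voom from limma 3.58.1, other scalings, looser and tighter count filters, a replicate block and leaving out each library. The members and lists were chosen with earlier results of these data known. Every tested collagen may be named. From each role list the text names the 2 called genes with the smallest p in each direction plus Serpinh1, Lox and Mmp13, and from each marker list the most abundant gene per length. Of the 44 collagens 10 share exon bases with another gene, at most 6.07% of their length.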

Additional observations from a re-analysis of the deposited data

Results flagged for a closer look

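In 4 of 82 groups of 4 libraries (41 tested collagens, vehicle and MC903), 1 library lay far from the other 3 by Dixon's gap criterion, where chance gives about 1 in 20. For Col1a2 in MC903 ears, replicate 4 was at 1729 CPM and the others at 950.1, 981.9 and 1059 CPM. For Col4a2 in MC903 ears, replicate 1 was at 96.48 CPM and the others at 57.2, 60.03 and 61.74 CPM. For Col4a3 in MC903 ears, replicate 4 was at 10.3 CPM and the others at 2.916, 3.843 and 3.913 CPM. For Col6a5 in vehicle ears, replicate 3 was at 1.771 CPM and the others at 0.3123, 0.4124 and 0.461 CPM.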

How the results depend on the processing

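No tested collagen gene reversed its direction while called under any alternative fixed at the start. Over the tested collagens and those alternatives, 634 fold changes stayed on their side of the threshold, 55 lost the call and 7, all of Col1a2, gained it. The number of collagens higher was 5, and 3 with library sizes alone, a scaling under which the share of all called genes that were higher was 44.0% rather than 51.2% (43.1% with upper quartile factors). The number lower was 22, and 13 without vehicle replicates 2 and 4 together, where 4800 of 16744 genes were called in all. Leaving out 1 library gave 4 to 5 higher and 16 to 20 lower, and a median log2 fold change of -0.63 to -0.45, the last without vehicle replicate 4. The median was -0.42 without vehicle replicates 2 and 4. Cartilage collagens lower numbered 4 to 6, fibrillar collagens lower 1 to 3 and fibril-associated collagens higher 0 to 1 with 1 library left out. The log2 ratio Col9a2/Col9a3 differed by -0.03 between the groups, by 0.09374 with a prior count of 5, by 0.0002241 without vehicle replicate 3 and, with 1 library left out, by -0.1175 to 0.1895 (the highest without MC903 replicate 2), and it passed no test. The cause of these moves was not tested. Same-numbered libraries showed no sign of being paired, with correlations of deviations of -0.204 to 0.0568, though such values cannot exclude a pairing. With the replicate block 5705 genes were called against 6682. Without the count filter 6 collagens were higher, among them Col6a4 (adjusted p = 0.000331), and Col19a1 and Col26a1 were not called (adjusted p = 0.76 and 0.892).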
